A study of Mus musculus with 3 samples.

Results

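Wnt4 is 1 of 125 targets of a primer panel read in individual mouse bone marrow (BM) cells, and it was chosen by its symbol because earlier values of these data had shown it in stromal cells. Its values are therefore given as a description, with no test. The series holds 3 libraries of C57/B6 wild-type mice, 1 per group, and no transgene, mutation or agent was used in any of them. E18.5 EC holds marrow endothelial cells (ECs) of E18.5 embryos, with CD31 as the sort marker in the methods and CD31 with endomucin in the series description. E18.5 BM holds fetal marrow cells at the same stage, and Adult BM holds marrow cells of adult mice, whose age is not given in the sources used here. Mature haematopoietic cells had been removed from both marrow libraries with lineage antibodies, and several animals were pooled in each library.

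Wnt4 encodes a secreted lipid-modified ligand of the Wnt family. Such ligands are escorted out of the producing cell by Wls and bind Frizzled receptors on target cells, where R-spondins and their Lgr receptors raise the response and Dkk proteins lower the canonical branch of it. Wnt4 is best known from the development of the kidney and the ovary, and it is also made in developing cartilage. On GRCm38 the gene lies on the forward strand of chromosome 4, from 137277489 to 137299726, with 5 exons in the annotated transcript. The last exon runs from 137296312 to 137299726 and holds the end of the coding sequence and the 3′ UTR. The panel reads Wnt4 through 2 amplicons, named PolyA_1 and PolyA_2, whose molecules were summed.

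The libraries differed in depth. After cells with few molecules were left out, E18.5 EC had 4038 cells with a median of 83 molecules over the whole panel, E18.5 BM had 12844 cells with 97, and Adult BM had 7939 cells with 242. Libraries shared between 38 and 113 cell barcodes. A level below is the number of Wnt4 molecules per 10000 panel molecules with an exact 95% Poisson interval, a share of cells carries an exact 95% binomial interval, and a ratio carries an exact 95% interval conditional on the summed count. These intervals cover counting error only. With 1 library per group, developmental stage cannot be told apart from library, preparation and depth, and statements on stage compare these libraries.

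Wnt4 was nearly absent from sorted fetal ECs, sparse in fetal marrow and frequent in adult marrow. E18.5 EC held 3 molecules in 3 of 4038 cells, a level of 0.0693 (0.0143 to 0.203). E18.5 BM held 305 molecules in 145 cells, a level of 1.66 (1.48 to 1.86), and Adult BM held 5100 molecules in 2056 cells, a level of 8.09 (7.87 to 8.32). The level in Adult BM was 4.87-fold that of E18.5 BM (4.34 to 5.49). Of 106 targets compared between these libraries, 31.1% were at least 2-fold higher in Adult BM, and Wnt4 ranked 25 by its ratio, so a difference of this size was common on the panel. The share of cells with a molecule was 0.0743% in E18.5 EC (0.0153 to 0.217), 1.13% in E18.5 BM (0.953 to 1.33) and 25.9% in Adult BM (24.9 to 26.9). Thinned to 50 molecules per cell, so that depth was equal, the shares were 0.0481%, 0.435% and 5.14%. Cells with fewer molecules than that were left out of thinned shares, which were 826, 2266 and 194 cells of the libraries in the same order.

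Among cells that had Wnt4, counts were low. A single molecule was seen in 80 of the 145 cells of E18.5 BM (55.2%) and in 901 of the 2056 cells of Adult BM (43.8%), with a maximum of 20 and 43 molecules. The fetal signal rested on few cells. The 10 cells with the most Wnt4 held 28.2% of the molecules of E18.5 BM and 4.25% of those of Adult BM. They were drawn from 145 and 2056 cells with Wnt4, so these 2 shares are not of like fractions. PolyA_2 was the more productive amplicon in both. PolyA_1 gave 95 of the 305 fetal molecules, or 31.1% (26.0 to 36.7), and 1460 of the 5100 adult molecules, or 28.6% (27.4 to 29.9). Both amplicons were seen together in 43 fetal and 735 adult cells, and the 3 molecules of E18.5 EC were all from PolyA_2.

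Cells were placed in classes by 7 markers: Cxcl12, the chemokine of reticular stroma; Bglap, the osteocalcin gene of osteoblasts; Col2a1, the collagen of cartilage; Aspn, a matrix protein of fibroblasts; Rgs5 of mural cells; Pecam1, the gene of CD31; and Ptprc, the gene of CD45. Each cell went to the marker highest in it relative to the mean of cells with that marker, with at least 2 molecules required, and classes are called by the marker only. The cells behind a marker were not alike at both stages. Lepr, the leptin receptor gene of adult reticular stroma, was found in 2408 of 2819 Cxcl12-marked cells of Adult BM but in 14 of 240 of E18.5 BM. The fetal Cxcl12-marked cells were led by Postn, a matrix gene of fibroblasts and periosteum, so a reticular name would go against their leading genes. Likewise Col10a1, the collagen of hypertrophic cartilage, stood at a level of 1624 in fetal and 529 in adult Col2a1-marked cells, while Acan, the cartilage proteoglycan gene, stood at 67.9 and 355. The fetal Col2a1-marked cells were led by Spp1, with bone-forming markers at a summed level of 5372 against 2748 for cartilage markers. In the adult class these sums were 1089 and 6352. Adult Aspn-marked cells had mural markers at a summed level of 1807 against 1306 for fibroblast-like markers, where the fetal ones had 372 against 6204. The adult Rgs5-marked cells were led by Prg4 ahead of Rgs5, but Prg4 was among the leading targets of every adult class except Col2a1-marked cells. Bglap3 was likewise found in 1196 of 1238 adult Ptprc-marked cells. The fetal Pecam1-marked cells of E18.5 BM were led by Srgn and Top2a, with blood cell markers at a summed level of 2914 against 967 for endothelial markers.

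**Figure D1:**
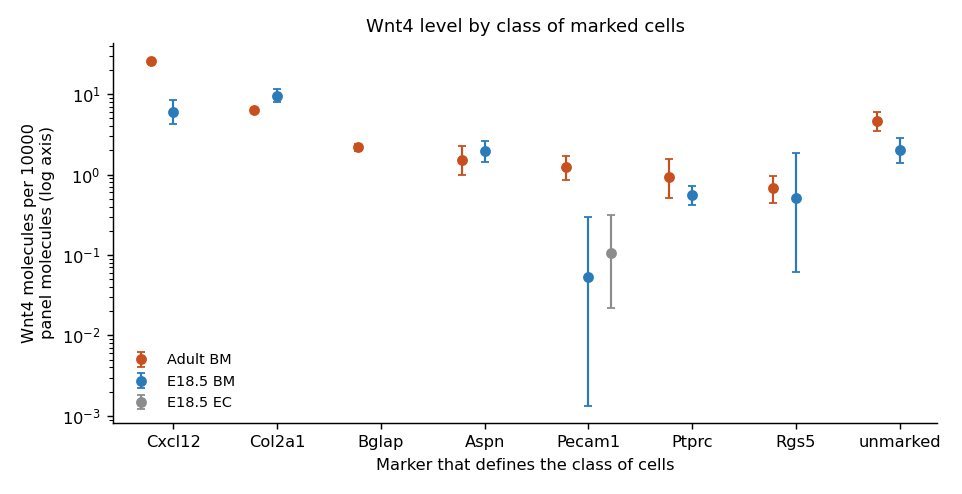
Wnt4 molecules per 10000 panel molecules (log axis) in cells grouped by marker, with exact 95% Poisson intervals, in 3 libraries. Classes under 50 cells or with no Wnt4 molecule are not drawn. Cxcl12-marked cells of Adult BM stand highest at 25.7, and the intervals of the lower adult classes from Aspn to Rgs5 run into each other.

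In Adult BM, Wnt4 was highest in Cxcl12-marked cells. These 2819 cells held 3289 molecules, or 64.5% of the library's Wnt4, at a level of 25.7 (24.8 to 26.6). Col2a1-marked cells followed with 1226 molecules in 473 cells and a level of 6.30 (5.95 to 6.66), and the level in Cxcl12-marked cells was 4.08-fold that value (3.82 to 4.36). The 507 unmarked cells stood at 4.60 (3.51 to 5.93), and the 362 Bglap-marked cells at 2.19 (1.99 to 2.41), with 422 molecules. Each step down to this point exceeded counting error per panel molecule. In Bglap-marked cells, however, Bglap and the related Bglap2 and Bglap3 stood at levels of 2603, 2826 and 3220, and so filled most of the denominator. The level without these genes was not computed, so the rank of this class holds per panel molecule only. Per cell, Wnt4 was 1.17 molecules in Cxcl12-marked, 2.59 in Col2a1-marked and 1.17 in Bglap-marked cells, at unlike depth. The cells marked by Cxcl12, Col2a1 or Bglap together were the sources of most adult Wnt4, since Col2a1-marked cells added 24.0% and Bglap-marked cells 8.27% of the molecules.

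The remaining adult classes formed a low group whose neighbours in the order did not differ beyond counting error. Aspn-marked cells stood at 1.53 (0.982 to 2.28), Pecam1-marked cells at 1.23 (0.868 to 1.70), Ptprc-marked cells at 0.932 (0.510 to 1.56) and Rgs5-marked cells at 0.673 (0.447 to 0.973). Bglap-marked and Aspn-marked cells did not differ beyond it either, with a ratio of 1.43 (0.948 to 2.26). Over the ends of this group the order did hold, as Aspn-marked cells were 2.28-fold above Rgs5-marked cells (1.26 to 4.07). Cxcl12-marked cells exceeded every other marked class at least 2-fold for 8 of 103 targets (7.77%), namely Cp, Cxcl12, Fzd5, Lepr, Mmp13, Rspo2, Spp1 and Wnt4, where Cxcl12 follows from the choice of the class. This list holds Fzd5, a Wnt receptor gene, and Rspo2, the gene of an R-spondin.

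Along the number of Cxcl12 molecules per cell, the adult Wnt4 level rose in a step. Adult cells with 0 Cxcl12 molecules stood at 4.43 (4.15 to 4.73), above the 3.18 (2.87 to 3.52) of cells with 1, and cells with at least 10 but under 50 stood at 6.68 (5.73 to 7.74). Adult cells with at least 50 but under 200 Cxcl12 molecules had a Wnt4 level of 23.6 (22.1 to 25.1), and cells with 200 or more had 24.0 (23.0 to 25.0). Cells with 2 to 4 stood at 3.38 (3.05 to 3.75). The largest step thus lay between the bin of 10 to 49 and the next one, with 50 being a bin edge, and the intervals above it overlapped. The bins pool cells of all classes, so whether Wnt4 follows Cxcl12 within 1 class was not tested. For Lepr the rise came at the first molecules, from 4.33 (4.15 to 4.52) in cells without it to 13.5 (12.4 to 14.8) in cells with 1, 24.9 (23.6 to 26.2) in cells with 2 to 4 and 19.0 (16.5 to 21.9) in cells with 10 to 49. Within adult Cxcl12-marked cells the level fell with total depth, from 33.5 (31.0 to 36.1) in the tercile of cells with the fewest molecules to 21.7 (20.6 to 22.8) in the tercile with the most. Cxcl12 itself made up 51.5% of the molecules of the class, and without the 7 markers in the denominator the level of Wnt4 was 53.6 (51.7 to 55.4).

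**Figure D2:**
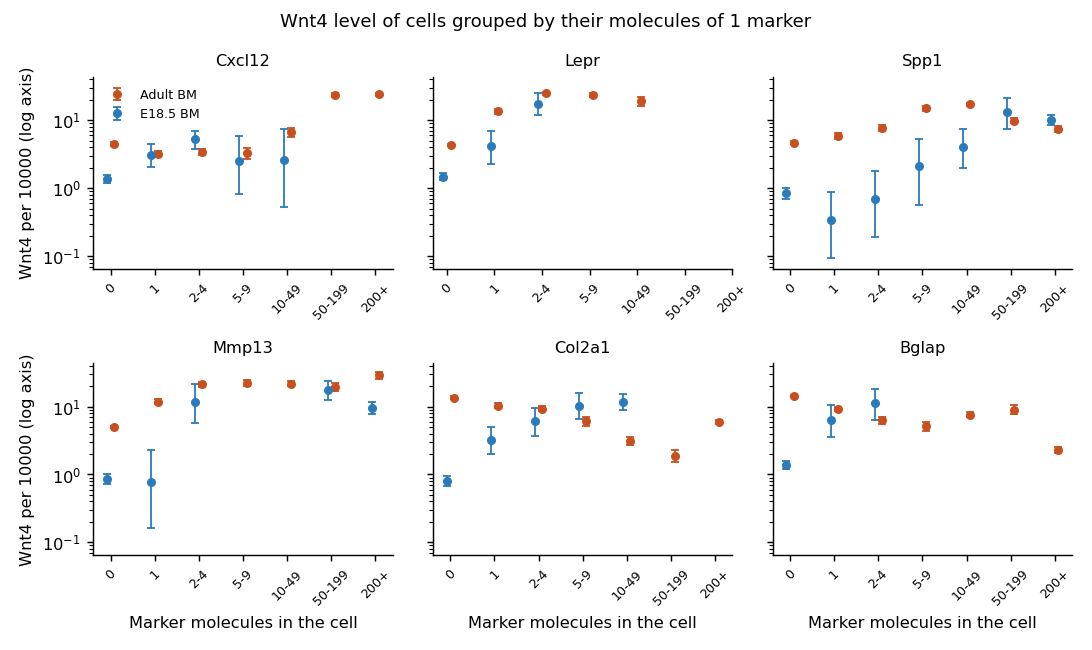
Wnt4 molecules per 10000 panel molecules (log axis) of cells grouped by how many molecules of 1 marker they hold, in Adult BM and E18.5 BM, with exact 95% Poisson intervals. Adult cells with 50 or more Cxcl12 molecules stand near 24, and fetal cells with 0 or 1 Mmp13 molecule stand under 1.

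The share of cells with Wnt4 gave another order than the level, and depth differed between classes. Col2a1-marked adult cells had a median of 3827 molecules, and 59.0% of them had Wnt4 (54.4 to 63.5). Cxcl12-marked cells had a median of 382, and 53.7% of them had it (51.8 to 55.5). Bglap-marked cells, with a median of 4586, had Wnt4 in 47.8% (42.5 to 53.1). When the cells with at least 50 molecules were thinned to that number the order was that of the level, with 12.6% of Cxcl12-marked (11.4 to 13.9), 3.05% of Col2a1-marked (1.63 to 4.92) and 1.72% of Bglap-marked cells (0.611 to 3.57). As sequenced, the share with Wnt4 was thus larger in Col2a1-marked than in Cxcl12-marked cells, but with overlapping intervals. At equal depth it was smaller, with intervals apart.

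Ptprc-marked cells were taken as the background, on the assumption, which was not tested, that blood cells lack Wnt4. In Adult BM 9 of 1238 had a molecule, or 0.727% (0.333 to 1.38) at a median of 93 molecules, and 0.305% (0.0918 to 0.860) at 50 molecules per cell. Shares at equal depth of Aspn-marked (0.666%), Pecam1-marked (0.458%) and Rgs5-marked cells (0.440%) had intervals that included this value. Adult Pecam1-marked cells held 37 Wnt4 molecules, of which 29 lay in the 301 of 1857 cells that also had Spp1, a matrix gene of bone cells. For each 1000 molecules of Cxcl12 there were 4.996 of Wnt4 in Cxcl12-marked cells, 2.57 in Pecam1-marked and 7.17 in Ptprc-marked cells, but 182 in Bglap-marked and 494 in Col2a1-marked cells. Over class totals, Pecam1-marked cells thus had more Cxcl12 per Wnt4 molecule than Cxcl12-marked cells, and Bglap-marked and Col2a1-marked cells had far less. Whether the cells with Wnt4 themselves held that Cxcl12 was not tested.

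**Figure D3:**
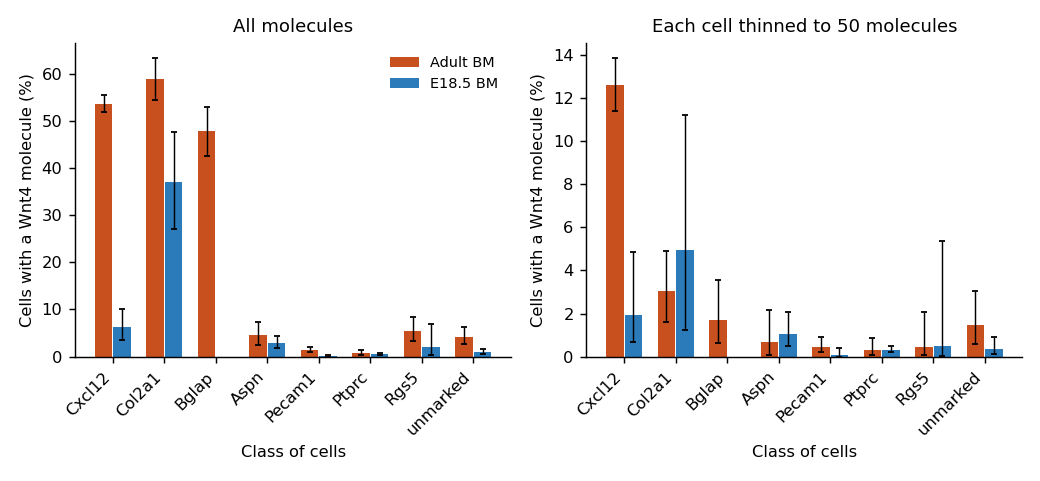
Share of cells with a Wnt4 molecule (%) by class in Adult BM and E18.5 BM, with all molecules (left) and with each cell thinned to 50 molecules (right), with exact 95% binomial intervals. The axes differ in range. Adult Col2a1-marked cells have the tallest bar on the left at 59.0% and Cxcl12-marked cells on the right at 12.6%.

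In E18.5 BM the upper Wnt4 levels were those of Col2a1-marked and Cxcl12-marked cells among classes of at least 50 cells, and their order rested on few cells. Col2a1-marked cells held 108 molecules in 34 of 92 cells, a level of 9.62 (7.89 to 11.6). Cxcl12-marked cells held 34 molecules in 15 of 240 cells, a level of 6.07 (4.20 to 8.48). The ratio of the former to the latter was 1.59 (1.07 to 2.40). Without the 10 cells of the library with the most Wnt4, the level of Cxcl12-marked over Col2a1-marked cells was 1.03 (0.611 to 1.72). That removal picks cells by Wnt4 itself, so it cannot decide the order. It left 44 molecules in Col2a1-marked and 26 in Cxcl12-marked cells. Of 14 alternatives, 10 kept Col2a1-marked cells higher beyond counting error, 3 included equal levels and 1, this removal, reversed. Neither class is therefore called the higher. Neither exceeded all other marked classes at least 2-fold in Wnt4. Of 100 targets, 10% did so in Col2a1-marked and 2% in Cxcl12-marked cells. Bglap-marked cells, too few to be ranked, numbered 23 and held 23 molecules in 8 cells.

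Below them, unmarked cells at 2.02 (1.40 to 2.82) and Aspn-marked cells at 1.95 (1.43 to 2.59) did not differ beyond counting error. Ptprc-marked cells stood at 0.556 (0.420 to 0.722) and Rgs5-marked cells, with 2 molecules, at 0.512 (0.0620 to 1.85). Pecam1-marked cells of E18.5 BM held 1 molecule in 1602 cells, a level of 0.0531 (0.00135 to 0.296). In E18.5 EC all 3 molecules lay in the 3043 Pecam1-marked cells, at 0.107 (0.0221 to 0.313), and none was seen in 879 Ptprc-marked cells, which allows a share of up to 0.341% if 3 counts are taken as the limit, with an exact upper bound of 0.419%. In both fetal libraries Pecam1-marked cells thus stood below the Ptprc-marked cells of E18.5 BM, but in E18.5 BM 1112 of the 1602 Pecam1-marked cells also had Ptprc. The share of fetal Ptprc-marked cells with a molecule was 0.541% (0.395 to 0.723) at a median of 90 molecules. Since there were 8317 such cells, their 56 molecules were 18.4% of the Wnt4 of the library. The Wnt4 of these cells varied with depth, at 1.66 (1.03 to 2.54) in the shallowest and 0.222 (0.122 to 0.373) in the deepest tercile.

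The fetal cells with most Wnt4 had Spp1, the osteopontin gene, and Mmp13, a collagenase gene of hypertrophic cartilage and osteoblasts. Cells with at least 10 Spp1 and 2 Mmp13 molecules numbered 103, or 0.802% of E18.5 BM, and held 157 of its 305 Wnt4 molecules (51.5%) at a level of 11.7 (9.94 to 13.7). Of these cells 45.6% had Wnt4 (35.8 to 55.7). Cells that met neither limit stood at 0.7999 (0.669 to 0.949). In Adult BM 940 cells met both limits, with 30.02% of the Wnt4 and a level of 21.5 (20.4 to 22.6), and cells that met neither stood at 4.83 (4.62 to 5.05). These limits were set after the values had been seen, so the counts describe where the molecules lay.

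Among fetal Cxcl12-marked cells, Wnt4 was concentrated in a small set of cells with bone-related genes. The 26 cells with Mmp13 held 31 of the 34 molecules, a level of 28.2, while the 214 cells without it held 3, a level of 0.666, and the ratio was 42.4 (13.2 to 217). The 31 cells with Spp1 held 29 molecules, with a ratio of 19.97 (7.64 to 66.1), and the 38 cells with Alpl, the alkaline phosphatase gene, also held 29, with a ratio of 17.3 (6.61 to 57.1). The 14 cells with Lepr held 17 molecules, a level of 31.7 against 3.35 in cells without it, and a ratio of 9.46 (4.54 to 19.7). Other genes of reticular stroma did not differ beyond counting error. The ratio was 0.789 (0.373 to 1.64) for Kitl, the stem cell factor gene, in 109 cells, and 2.63 (0.514 to 8.42) for Cp in 4 cells. Cells with Ccn3, a matricellular gene of fibroblasts and cartilage, had less Wnt4: 186 such cells held 4 molecules, and the 54 cells without it held 30. The 2 cartilage genes went opposite ways. Acan-bearing cells held none, as 67 cells were at 0, while the 6 cells with Col10a1 held 12 molecules. Their level was 33.2 against 4.20 in cells without Col10a1, a ratio of 7.92 (3.57 to 16.7). These ratios rest on few cells: Wnt4 was seen in 12 of the 26 cells with Mmp13, 5 of the 14 with Lepr and 3 of the 6 with Col10a1. In the class 7 cells held 23 of the 34 molecules. Without the 10 cells of the library with the most Wnt4, the cells with Lepr held 9 molecules in 13 cells. The intervals do not cover the spread between cells. Of 18 second markers, 8 went with a higher and 3 with a lower Wnt4 level, and these sets overlap in their cells.

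In adult Cxcl12-marked cells the differences by second marker were smaller. The 2408 cells with Lepr stood at 25.8 and the 411 cells without it at 24.9, a ratio of 1.04 (0.939 to 1.15) that was 1.65 (1.498 to 1.83) without the 7 markers in the denominator. Spp1 gave 0.994 (0.895 to 1.11), and Kitl, the stem cell factor gene, gave 1.11 (0.956 to 1.30). Mmp13 went with a ratio of 1.25 (1.16 to 1.35), and Postn with 1.39 (1.24 to 1.56). The lowest adult level was in the 51 cells with Ccn3, at 6.34 (4.51 to 8.66), against 26.7 in the cells without it. Cells with Acp5, a gene of osteoclasts, also stood lower, at 15.3 against 26.5. Of 19 second markers, 4 went with a higher and 5 with a lower level, and the ratios ran from 0.237 to 1.39.

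**Figure D4:**
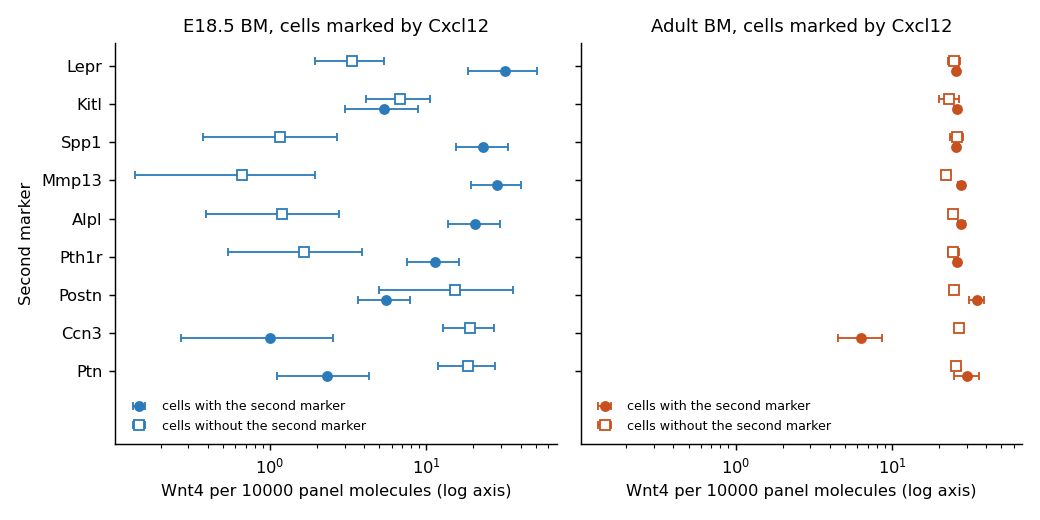
Wnt4 molecules per 10000 panel molecules (log axis) in Cxcl12-marked cells with (filled circles) and without (open squares) a second marker, in E18.5 BM (left) and Adult BM (right), with exact 95% Poisson intervals. With Mmp13 the fetal level is 28.2 against 0.666 without it, and the adult levels are 27.6 and 22.1.

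In Cxcl12-marked cells Wnt4 was higher in Adult BM, by an amount that depended on the denominator. The classes were unlike in Cxcl12 content, with 658392 molecules in 2819 adult and 1770 in 240 fetal cells. Among all cells with 2 to 4 Cxcl12 molecules, the adult level was 3.38 (3.05 to 3.75) and the fetal one 5.22 (3.78 to 7.03). With 5 to 9 the levels were 3.27 and 2.54, and with 10 to 49 they were 6.68 and 2.56, with overlapping intervals. The class ratio thus does not compare cells of like Cxcl12 content. Over the class, the level in Adult BM was 4.24-fold that of E18.5 BM (3.03 to 6.13), and 8.20-fold (5.86 to 11.9) without the 7 markers, which took 52.0% of the adult and 7.09% of the fetal molecules of the class. At a limit of 2-fold, 24.1% of 87 targets were higher in Adult BM and Wnt4 ranked 12. Among cells with Mmp13 the adult level of 27.6 stood beside a fetal level of 28.2, a ratio of 0.980 (0.688 to 1.45), but without the 7 markers the ratio was 1.87 (1.32 to 2.76). Among cells with Lepr, the ratio was 0.815 (0.508 to 1.40), and 1.68 (1.05 to 2.89) without the markers. Equality in these cells therefore rested on the denominator. Of 18 second markers, the cells with the marker had a higher adult level beyond counting error for 9 and included equal levels for 9, and without the 7 markers 17 were higher. Cells with Pth1r had a ratio of 2.30 (1.60 to 3.44), those with Kitl 4.84 (2.93 to 8.65) and those with Postn 6.34 (4.33 to 9.61). Among cells without Mmp13 it was 33.2 (11.3 to 161), and among cells without Spp1 22.5 (9.54 to 69.5), with 3 and 5 fetal molecules. The 214 fetal cells without Mmp13 stood at 0.666 beside 0.556 in fetal Ptprc-marked cells. Cells with Mmp13 were 26 of 240 fetal and 1698 of 2819 adult Cxcl12-marked cells.

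In Col2a1-marked cells no direction between stages can be given. The adult level over the fetal one was 0.655 (0.537 to 0.805) per panel molecule, but the 7 markers together, nearly all of it Col2a1, took 55.2% of the molecules of the adult and 10.6% of those of the fetal class, and without them the ratio was 1.30 (1.07 to 1.60). The 7 cells with the most Wnt4 held 67 of the 108 fetal molecules and 142 of the 1226 adult ones, out of 34 fetal and 279 adult cells with Wnt4. The adult cells with Alpl, which were 412 of 473, stood at 6.63 against 1.72 in those without it, a ratio of 3.85 (2.56 to 6.10), and the 446 with Pth1r, the receptor gene of parathyroid hormone, at 6.38 against 1.66, a ratio of 3.83 (1.76 to 10.5). Cells with Spp1 were lower in Adult BM, with a ratio of 0.775 (0.690 to 0.869), and higher in E18.5 BM, with 3.91 (1.30 to 19.2). Bglap-marked adult cells gave a like picture, with 418 of 422 molecules in the 322 of 362 cells that had Alpl. Aspn-marked cells had an adult over fetal ratio of 0.787 (0.460 to 1.31), which includes equal levels, and Ptprc-marked cells 1.68 (0.863 to 3.05). The Aspn-marked cells were of unlike make-up at the 2 stages, so their ratio does not compare 1 kind of cell.

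Of 17 Wnt ligands of the panel, 12 had a molecule in Cxcl12-marked cells. Among these, Wnt4 was the 1 ligand whose level was higher in Adult BM beyond counting error, as were 21.1% of all 114 targets seen in these cells. Lower in Adult BM were 6, where 62.3% of all targets were lower: Wnt11, at 1.31 against 30.9 for a ratio of 0.0426 (0.0342 to 0.0529), Wnt9a, with 0.829 against 11.1, Wnt5a, with 0.571 against 5.35, Wnt5b, with 4.21 against 9.99, and Wnt6 and Wnt10b, each with 3 fetal molecules. For the other 5, equal levels were not excluded. Without the markers in the denominator, 1 was higher and 4 were lower, beside 28% and 49.5% of all targets, and Wnt5b, at 0.815 (0.618 to 1.09), was among those no longer lower. Levels of different targets depend on their primers, so only each ligand's own ratio is read.

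**Figure D5:**
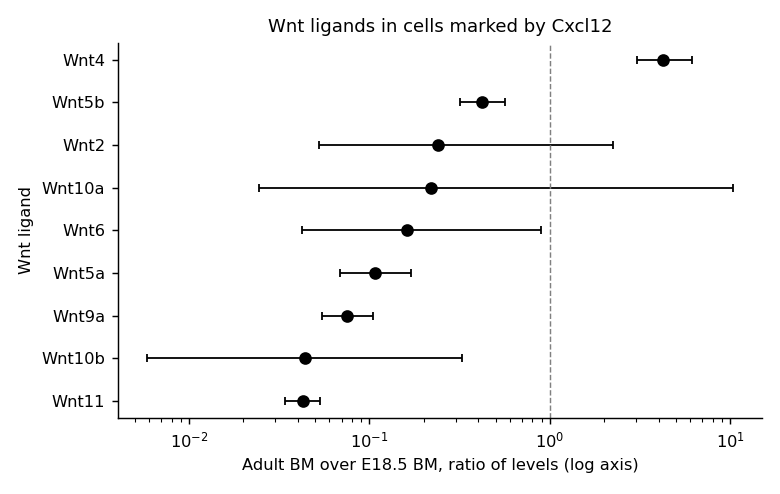
Ratio of levels, Adult BM over E18.5 BM, of each Wnt ligand seen at both stages in Cxcl12-marked cells (log axis, dashed line at equal levels), with exact 95% intervals. Wnt4 stands at 4.24, and every other ligand drawn has a ratio under 1, with intervals that cross the line for Wnt2 and Wnt10a.

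By class, 11 ligands had at least 20 adult molecules. Of these, 7 had their highest value in Aspn-marked cells, 2 in Pecam1-marked, 1 in Col2a1-marked and 1, Wnt4, in Cxcl12-marked cells. The share of all targets that peak in Aspn-marked cells was not computed, so the count is not read as particular to ligands. Some places were close, as Wnt5a stood at 1.34 (0.831 to 2.05) in Aspn-marked and 0.868 (0.742 to 1.01) in Col2a1-marked cells. Wnt2 stood at 21.4 and Wnt9a at 25.0 in adult Aspn-marked cells, and their fetal levels in that class, whose cells were not alike at both stages, were 24.0 and 24.8. In E18.5 BM 9 ligands had as many molecules, and 2, Wnt4 and Wnt10b, had their highest value in Col2a1-marked cells, a place that Wnt4 did not hold without the 10 cells with the most of it. In Col2a1-marked cells Wnt11 was 5.53-fold higher in Adult BM (3.15 to 10.7) and Wnt5b 1.63-fold (1.29 to 2.08), while Wnt10b was lower, at 0.144 against 1.42.

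Receptors and co-factors of the pathway in Cxcl12-marked cells were mostly lower in Adult BM, as were the targets at large. Of 8 Frizzled genes, 2 were higher, Fzd5 with 42.7 against 20.3 and a ratio of 2.10 (1.74 to 2.55) and Fzd9 with 2.60 (1.18 to 7.13), and 5 were lower, such as Fzd7 with 16.0 against 55.9. Of 10 co-factors, Rspo2 was higher with 34.0 against 12.3, a ratio of 2.76 (2.18 to 3.56). Lower were 7, among them Wls, with 44.9 against 119, and Dkk3, a member of the Dkk family, with 9.27 against 62.3. Without the markers in the denominator 5 co-factors and 5 Frizzled genes were lower, with 107 targets then compared in all.

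Over the 18 pairs of library and class with at least 50 cells, the levels of 105 targets were compared with those of Wnt4 on a log10 scale after adding 0.1. Pth1r was most like it, with a Pearson r of 0.858, followed by Sox9, a cartilage transcription factor gene (0.751), Panx3, a channel gene of hypertrophic cartilage and osteoblasts (0.747), Acan (0.725) and Col2a1 (0.717). With the 7 markers left out, Mgp, the matrix Gla protein gene, followed at 0.673. The pairs share libraries, and the classes were built from the same molecules, so these values are a description. Pth1r and Wnt4 still differed in their order: in Adult BM, Pth1r stood at 297 in Col2a1-marked and 51.2 in Cxcl12-marked cells, while Wnt4 stood at 6.30 and 25.7.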

How the data were processed

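Targeted single-cell libraries (BD Rhapsody) of 3 groups were analysed, grouped by sample title. The BD Targeted Rhapsody Analysis Pipeline 1.8 was used by the authors per the file headers, where the methods name an earlier release. The deposited counts are molecules per cell barcode and amplicon, not normalised, and DBEC-adjusted counts were used. They were 21.2%, 41.6% and 35.9% of raw molecules in E18.5 EC, E18.5 BM and Adult BM, and total molecules were 432987, 1837897 and 6304495. Barcodes under 20 molecules or 5 targets (5, 40 and 9) were excluded. No doublet caller was run on this small panel. Limits on marker content and depth were tried instead.

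Members, gene lists and classes were chosen with earlier results of these data known. Classes under 50 cells are given as counts only, but this limit was not applied to sets of cells by second marker. Thinned shares are expectations over all draws, with the interval of the nearest whole count. Named genes were the 5 targets most correlated with Wnt4 (at least 100 molecules), the other Wnt ligands, Frizzleds and co-factors, and the second markers listed for each cell type. Functions were tested on simulated data. The gene position is from GENCODE M21. Python 3.11.15, numpy 2.4.6, pandas 2.3.3, scipy 1.17.1 and matplotlib 3.10.9 were used. No p-value was computed. Amplicon sequences were not used here.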

Additional observations from a re-analysis of the deposited data

Results flagged for a closer look

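The level of Wnt4 in Cxcl12-marked over Col2a1-marked cells lay on opposite sides of equality in the marrow libraries at the main setting. It was 4.08 in Adult BM and 0.631 (0.416 to 0.935) in E18.5 BM. Of 14 alternatives for the fetal ratio, 3 included equal levels and 1 reversed, so neither fetal class is called the higher. The difference between the adult and fetal ratios was not tested, since each group is 1 library. The fetal ratio was 1.03 without the 10 cells of that library with the most Wnt4, a removal that picks cells by Wnt4 itself.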

How the results depend on the processing

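No paired analysis was possible because each group is 1 library, and no library could be left out. Of 121 values under alternatives, 95 kept their direction and their side of equality, 11 no longer excluded it, 4 newly did and 11 reversed. The adult over fetal ratio of whole libraries (4.48 to 9.54), that of Cxcl12-marked cells (2.59 to 8.20) and the adult ratio of Cxcl12-marked over Col2a1-marked cells (2.28 to 5.17) kept theirs in all. The removal of the 10 cells with the most Wnt4, and the values by second marker without the 7 markers, were chosen after seeing the data.

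For Col2a1-marked cells the adult over fetal ratio was 0.982 with RSEC-adjusted molecules, 0.833 with PolyA_1 alone, 0.697 without cells above the 99th percentile of molecules, 1.30 without the markers and 1.21 without the 10 cells. For fetal Cxcl12-marked over Col2a1-marked cells the ratio was 0.721 with PolyA_1 alone, 0.897 with classes by number of molecules, 0.675 in cells with 1 marker only and 1.03 without the 10 cells. For fetal Cxcl12-marked over Aspn-marked cells it was 1.85 with PolyA_1 alone and 1.82 without cells above the 99th percentile, and adult Col2a1-marked over Bglap-marked cells gave 1.25 in cells with 1 marker only. The share of adult Cxcl12-marked minus Col2a1-marked cells with Wnt4 was -5.31 percentage points, and -6.93 with at least 5 marker molecules, -15.3 with at least 2 Wnt4 molecules, 1.22 with classes by number, 23.4 in cells with 1 marker only, 9.54 thinned to 50 and 26.8 thinned to 200 molecules. In E18.5 BM it was -30.7, and -3.01 and -10.7 when thinned to 50 and 200. Without the 7 markers, the adult over fetal ratio of Cxcl12-marked cells was 1.87 in cells with Mmp13 and 1.68 in cells with Lepr, and without the 10 cells it was 1.14 and 1.16. The adult ratio of cells with over without Lepr was 1.65 and 1.13 in these settings. The causes were not tested beyond what each setting removes. Few fetal molecules limit every fetal ratio.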
